A study of Mus musculus with 27 samples.

Results

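Genes that mark bipolar cells were followed through development of the mouse retina. The 7 genes were Prkca, Vsx1, Cabp5, Pcp2, Bhlhe23, Scgn and Lhx4, chosen by symbol among the 38168 features of an RNA-seq table. The data were CPM (the reads of a feature scaled to a fixed library total) in 27 libraries of whole C57BL/6J retina. Ages were embryonic day 14 (E14, n = 3 libraries), E17 (n = 3), postnatal day 1 (P1, n = 4), P6 (n = 3), P15 (n = 4), P28 (n = 4) and P60 (n = 6). No treatment or genetic change is given for any age, and the groups are defined by age. Depth ran from 7077781 to 11332323 reads a library. Each library pooled retinas of several animals, except that some P60 libraries came from single mice. Embryos and P1 pups were of mixed sexes and older mice were males, so sex and age cannot be told apart across that step. P60 replicates 1 and 2 stood apart from the other 4 P60 libraries, since the chi-square of their reads over genes, divided by its degrees of freedom, was 8.36 to 21.5 across that divide, 3.29 between the 2 and 4.62 to 9.31 among the 4. The divide was not complete, since P60 replicate 6 gave 8.36 with replicate 1 and 9.31 with replicate 3. Pairs of other ages gave 1.72 to 8.22. Among these, P15 replicate 4 gave 5.38 to 8.22 with the other P15 libraries. E17 replicate 2 gave 7.37 and 6.64 with the other E17 libraries. Without P60 replicates 1 and 2 the members called stayed at 7, 3, 0, 7, 3, 0 and 0 for mature against embryonic retina and the 6 steps in order of age.

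Bipolar cells are the interneurons that carry signals from rods and cones to the inner retina. They are among the last neurons to be generated, and form a single rod bipolar type and a larger set of cone bipolar types. ON types respond to light through the glutamate receptor mGluR6 and the channel TRPM1, and OFF types through ionotropic glutamate receptors. Among the genes followed here, Vsx1, Bhlhe23 and Lhx4 encode transcription factors, Prkca a signalling kinase, Cabp5 and Scgn calcium-binding proteins, and Pcp2 a modulator of G proteins.

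All 7 genes were higher in mature retina (P15, P28 and P60, n = 14) than in embryonic retina (E14 and E17, n = 6), and all 7 rose between P1 and P6. They then parted. Vsx1 and Lhx4 were highest at P6 and fell to P15, Bhlhe23 stood at 103% of its mature mean at P6, and Prkca, Cabp5, Pcp2 and Scgn rose further to P15. None of the 7 passed the test between P15 and P28 or between P28 and P60.

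Promoter sequence is shown for 3 of the genes, Scgn and Bhlhe23, which had at most 1 read in any P1 library, and Cabp5, which was the farthest below its mature level at P6. Vsx1 also had at most 1 read at P1 and is not shown, since 223 of its 250 bases lie inside the GENCODE model of the gene. Each sequence is the 250 bases before the RefSeq start (GRCm38.p6), read 5′ to 3′ on the strand of the gene, and capitals mark a match to one of the 7 motifs named below. The windows are chr7:13397905-13398154 (plus strand) for Cabp5, chr2:180776901-180777150 (minus strand) for Bhlhe23 and chr13:23991215-23991464 (minus strand) for Scgn.
Cabp5: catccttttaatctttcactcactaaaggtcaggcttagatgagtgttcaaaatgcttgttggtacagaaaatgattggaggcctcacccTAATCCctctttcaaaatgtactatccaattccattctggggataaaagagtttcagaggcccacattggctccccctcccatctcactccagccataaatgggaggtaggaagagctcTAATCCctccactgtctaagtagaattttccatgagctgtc
Bhlhe23: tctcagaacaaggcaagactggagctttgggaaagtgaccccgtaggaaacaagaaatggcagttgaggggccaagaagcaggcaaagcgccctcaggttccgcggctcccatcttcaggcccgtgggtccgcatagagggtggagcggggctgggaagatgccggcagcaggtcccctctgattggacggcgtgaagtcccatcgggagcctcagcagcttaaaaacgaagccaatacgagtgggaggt
Scgn: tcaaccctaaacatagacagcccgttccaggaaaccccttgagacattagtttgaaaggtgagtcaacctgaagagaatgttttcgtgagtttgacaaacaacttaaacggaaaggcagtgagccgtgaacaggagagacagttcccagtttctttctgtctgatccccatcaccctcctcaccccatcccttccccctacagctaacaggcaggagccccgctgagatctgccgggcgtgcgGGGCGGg

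The motifs were searched on both strands. They were TAATCC (the core bound by OTX2 and CRX), TAATTA (a general homeodomain core), an E-box spelled CATATG, another spelled CAGATG, one more spelled CAGCTG, the core promoter element TATAAA, and GGGCGG, the element bound by SP1. The motif TAATCC occurred in 6.25% of 32851 RefSeq promoters of the same length and, among the 7 genes, in Cabp5 alone, at positions -160 and -41 from the start. GGGCGG occurred in 32.7% of promoters and in Prkca, Lhx4 and Scgn. CAGCTG, in 13.0% of promoters, was found in Vsx1 at positions -79 and -44. The Lhx4 window with its match lies wholly inside the GENCODE model of that gene, as does the Pcp2 window that holds TATAAA and TAATTA. Of 4 RefSeq promoters of Pcp2, CAGATG (14.4% of promoters) was in 2, and TATAAA (12.4%) and TAATTA (4.84%) were in 1. The 2 windows with CAGATG overlap and share the same site. CATATG (3.46%) was in none of the 7 genes, and no motif matched in the Bhlhe23 window. These matches describe letters and no binding was measured.

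The 3 genes tied to rod bipolar cells are described first. Prkca (Gene ID 18750, GRCm38 chromosome 11, 107933387 to 108343928, minus strand) encodes protein kinase C alpha, the usual marker of rod bipolar cells. It measured 20.9, 16.2 and 18.8 CPM at E14, 39.2, 40.2 and 38.3 CPM at E17, and 72.2, 71.6, 63.9 and 68.7 CPM at P1. At P6 it reached 325, 288 and 245 CPM. The 3 P6 libraries lay above every P1 library and below every older one. Levels were 518, 513, 521 and 524 CPM at P15 and 552, 535, 515 and 512 CPM at P28, and ran from 519 to 614 CPM with a median of 551 CPM at P60. Prkca was the only gene of the 7 with over 15 CPM in every library, and it rose at each of the first 4 steps, by log2 fold changes of 1.04 ± 0.09 (SE), 0.80 ± 0.08, 2.02 ± 0.08 and 0.87 ± 0.08 (limma, largest adjusted p = 1.5e-08). All log2 fold changes here are differences of log2(CPM + 1) from 1 limma fit over the 27 libraries.

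Bhlhe23 (Gene ID 140489, chromosome 2, 180774381 to 180776900, minus strand) encodes a basic helix-loop-helix factor needed for rod bipolar maturation. It measured 0.80, 0.633 and 0.737 CPM at E14, from 6 to 8 reads a library, and a single read in each E17 library. At P1, 3 of 4 libraries had no read and the other had 1 read (0.113 CPM). At P6 the libraries measured 10.3, 9.19 and 8.0 CPM, at least 25.46-fold above P1, taking as the limit of P1 the mean CPM of 3 reads a library. At P15 the levels were 8.83, 9.88, 11.7 and 8.11 CPM, at P28 11.2, 8.43, 6.90 and 8.92 CPM, and at P60 6.85 to 9.75 CPM with a median of 8.07 CPM. The P6 libraries overlapped all 3 mature ages, and the P15 against P6 difference was 0.06 ± 0.18 on the log2 scale (limma, adjusted p = 0.84). From E14 to E17 Bhlhe23 fell by 0.65 on the log2(CPM + 1) scale (SE 0.19, limma, adjusted p = 0.020), and E14 was at least 2.46-fold higher. This difference no longer passed without any one of 5 of the 6 E14 and E17 libraries (limma, adjusted p = 0.057 to 0.075). No library of either age reached 1 CPM. Bhlhe23 entered the fit only through its levels at older ages, and was not tested with E14 and E17 alone.

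Pcp2 (Gene ID 18545, chromosome 8, 3623371 to 3625545, minus strand) encodes Purkinje cell protein 2, which in retina marks rod bipolar and some ON cone bipolar cells. It measured 2.10, 2.11 and 1.26 CPM at E14, 3.78, 2.91 and 2.07 CPM at E17, and 1.84, 4.79, 2.94 and 1.66 CPM at P1. It rose to 10.7, 7.03 and 7.03 CPM at P6 and to 33.1, 35.3, 28.4 and 34.9 CPM at P15, log2 fold changes of 1.33 ± 0.20 and 1.89 ± 0.20 (limma, adjusted p = 2.1e-06 and 6.1e-09). At P28 it measured 31.0, 31.7, 29.2 and 35.7 CPM, and at P60 29.8 to 38.1 CPM with a median of 32.5 CPM. The 3 youngest ages overlapped, as did the 3 oldest.

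Pcp2 carries a limit from its position. Of its 1828 exon bases, 941 are shared with exons of Pet100, a mitochondrial assembly gene on the opposite strand, and the strand setting of the counting is not given in the sources used here. Pet100 itself measured 10.9 ± 0.71 CPM (SD, n = 3) at E14, 10.4 ± 0.99 (n = 4) at P1 and 12.3 ± 2.5 (n = 3) at P6. It measured 31.5 ± 6.0 (n = 4) at P15 and 34.6 ± 3.9 (n = 6) at P60, so both genes were higher from P15 on. Between P1 and P6, where Pcp2 rose, the Pet100 libraries overlapped. The part of shared reads in the Pcp2 values was not tested. Exon overlaps of other members were small, 30 bases of Prkca with Apoh, which averaged at most 0.230 CPM at any age, and 144 bases of Bhlhe23 with Gm14343 on the same strand, which was not analysed here.

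**Figure D1:**
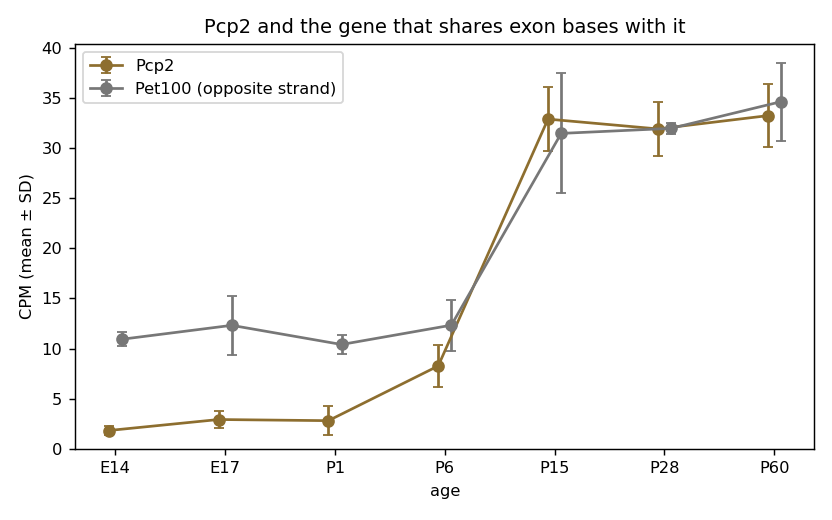
Mean CPM ± SD at each age for Pcp2 and for Pet100, the opposite-strand gene with which it shares exon bases. Pet100 stayed between 10.4 and 12.3 CPM up to P6 while Pcp2 went from 1.82 to 8.27 CPM, and both stood above 31 CPM from P15 on.

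Cabp5 (Gene ID 29865, chromosome 7, 13398132 to 13408887, plus strand) encodes a calcium-binding protein found in rod bipolar cells and in some cone bipolar types. It measured 0.10, 0.633 and 0.316 CPM at E14, 2.86, 3.09 and 3.93 CPM at E17, and 8.83, 5.17, 9.27 and 6.15 CPM at P1. It went on to 32.4, 23.8 and 21 CPM at P6 and to 109, 104, 104 and 105 CPM at P15. No library of these 5 ages overlapped with those of the age before. At P28 it measured 108, 108, 111 and 116 CPM, and at P60 102 to 126 CPM with a median of 114 CPM. Cabp5 rose at each of the first 4 steps, by 1.68 ± 0.16, 0.94 ± 0.15, 1.69 ± 0.15 and 2.02 ± 0.15 on the log2 scale (limma, largest adjusted p = 5.6e-05). Its mature against embryonic difference of 5.54 ± 0.10 (limma, adjusted p = 4.2e-30) rests on embryonic levels of at most 3.93 CPM.

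The remaining members are known from cone bipolar cells. Vsx1 (Gene ID 114889, chromosome 2, 150680702 to 150689360, minus strand) encodes a homeodomain factor of cone bipolar cells. It measured 0.10, 0.422 and 0.526 CPM at E14, and at most 1 read was counted in any library of E17 or P1. At P6 it measured 56.7, 54.6 and 45.9 CPM, at least 145.5-fold above P1. Every P6 library lay above every later one. At P15 it measured 26.6, 24.4, 30.2 and 32.9 CPM, at P28 27.4, 27.7, 28.4 and 20.5 CPM, and at P60 18.5 to 31.0 CPM with a median of 27.4 CPM. P60 replicates 1 and 2, at 18.5 and 19.0 CPM, lay below the other 4, at 26.5 to 31.0 CPM. From P6 to P15 Vsx1 fell by 0.86 on the log2 scale (SE 0.18, limma, adjusted p = 3.3e-04). E14 against E17, with 1 to 5 reads against 0 or 1, did not pass (limma, adjusted p = 0.27), but did with a pseudocount of 0.1 (limma, adjusted p = 0.0011). No library of these ages reached 1 CPM, so Vsx1 entered the fit only through its levels at older ages.

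Lhx4 (Gene ID 16872, chromosome 1, 155698031 to 155751684, minus strand) encodes a LIM homeodomain factor present in cone bipolar cells and also in cone photoreceptors. It measured 9.40, 6.43 and 8.21 CPM at E14, 27, 25.1 and 28.9 CPM at E17, and 31.5, 36.9, 36.5 and 31.7 CPM at P1. It peaked at P6 with 78.1, 89.1 and 79.1 CPM. Every P6 library lay above every library of the other ages, since P15 measured 45.2, 47.5, 49.3 and 52.0 CPM, P28 39.8, 41.0, 45.1 and 46.6 CPM, and P60 37.6 to 45.0 CPM with a median of 41.0 CPM. The lowest P60 values, 40.7 and 37.6 CPM, were those of replicates 1 and 2. Lhx4 rose by 1.65 ± 0.11 to E17 and by 1.24 ± 0.11 from P1 to P6, and fell by 0.75 (SE 0.11) to P15 on the log2 scale (limma, largest adjusted p = 1.1e-06). The P1 against E17 difference, 0.33 ± 0.11 (limma, adjusted p = 0.044), no longer passed under 15 of the alternatives tried. The summed level of 5 cone photoreceptor markers was 5.92 CPM at E14, 58.8 CPM at P1, 114 CPM at P6 and 314 CPM at P15, and their part in the Lhx4 level was not tested.

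Scgn (Gene ID 214189, chromosome 13, 23953456 to 23991214, minus strand) encodes secretagogin, a calcium-binding protein of several cone bipolar types. It had 0 to 3 reads in every library up to P1, with 0.10, 0.316 and 0 CPM at E14 and 1 read among all 4 P1 libraries. At P6 it measured 12.2, 12.8 and 10.6 CPM, at least 32.89-fold above P1, and at P15 28.1, 25.9, 26.4 and 30.9 CPM. At P28 it measured 32.2, 29.9, 31.3 and 29.9 CPM, and at P60 20.2 to 31.5 CPM with a median of 26.4 CPM, the upper values being those of P60 replicates 1 and 2 (27.9 and 31.5 CPM). The P6 libraries lay apart from both, above all younger libraries and below all older ones. The P15 against P6 rise was 1.17 ± 0.15 on the log2 scale (limma, adjusted p = 4.2e-07), and mature retina was at least 93.66-fold above embryonic retina.

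**Figure D2:**
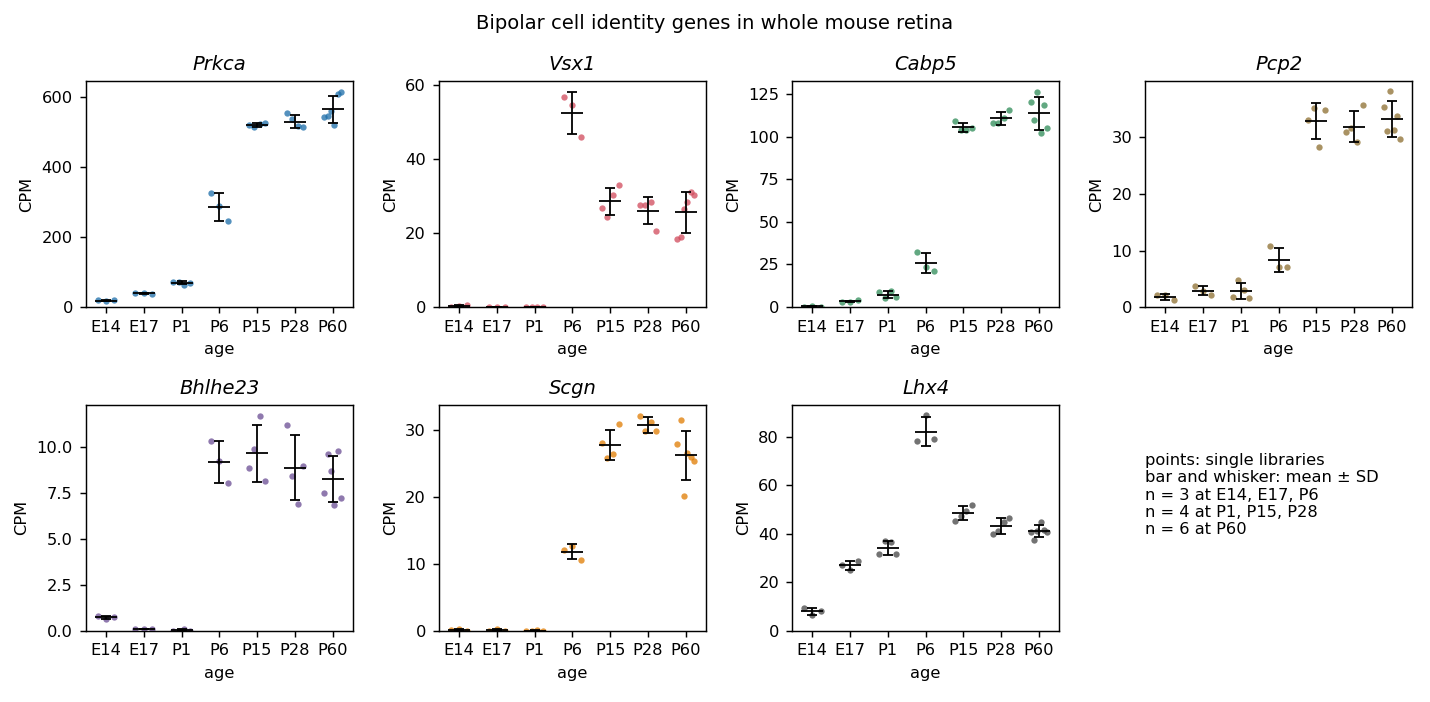
CPM of each gene by age, with a point for each library and bars for the mean ± SD (n = 3 at E14, E17 and P6, 4 at P1, P15 and P28, 6 at P60). Each gene has its own linear axis from 0. Vsx1 and Lhx4 stand highest at P6, and Prkca, Cabp5, Pcp2 and Scgn climb further to P15.

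Across the 7 genes, 7 of 7 were called higher in mature than in embryonic retina, where 14.9% of the 31760 features tested were called higher and 16.1% lower (adjusted p under 0.05 and a log2 fold change of at least 1). Every mature library lay above every embryonic one for 7 of 7 genes, and for 17.4% of features. Their median log2 fold change was 4.26, beside -0.06 over all features. Between P1 and P6, 7 of 7 were called higher, against 6.3% of features (6.74% lower), with a median of 2.02 beside -0.03. All P6 libraries lay above all P1 libraries for 7 of 7 genes, which held for 22.5% of features. At the E17 against E14 step 3 were called higher (Prkca, Cabp5 and Lhx4), against 2.9% of features (0.702% lower), and at the P15 against P6 step 3 (Cabp5, Pcp2 and Scgn), against 4.74%. All P6 libraries exceeded all mature ones for Vsx1 and Lhx4, that is 2 of 7 genes, as for 15.3% of features. All P15 libraries exceeded all P6 ones for Prkca, Cabp5, Pcp2 and Scgn, 4 of 7, as for 18.4%. The highest mean was at P6 for Vsx1 and Lhx4 (13.2% of features), at P15 for Bhlhe23 (13.1%), at P28 for Scgn (9.92%) and at P60 for Prkca, Cabp5 and Pcp2 (15.6%). In whole tissue, more cells of a type and more RNA per cell cannot be told apart.

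At 3 steps no member was called. Between E17 and P1 0 of 7 passed both thresholds (1.23% of features were called higher and 0.614% lower). There 3 (Prkca, Cabp5 and Lhx4) had a p under 0.05 both before and after adjustment and missed only the fold threshold, and edgeR on recovered reads called 1, Cabp5. Between P15 and P28 0 of 7 passed, with 0 at an unadjusted p under 0.05 and 0 by edgeR, and the background was 0.164% higher and 0.22% lower. Between P28 and P60 the counts were again 0, 0 and 0, beside 0.0756% and 0.378%.

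The order of ages for each gene follows from the levels above. In Prkca and Cabp5 each age up to P15 passed the test against the next, and P15, P28 and P60 did not separate. In Vsx1 and Scgn the ages up to P1 did not separate from one another, nor did the 3 mature ages. In Pcp2 the neighbours E14, P1 and E17 did not separate, nor did P28, P15 and P60. Bhlhe23 had no separation among P60, P28, P6 and P15, nor between P1 and E17. In Lhx4 the order was E14, E17, P1, P60, P28, P15 and P6, and the only neighbours that did not differ beyond their spread were P60 and P28, and P28 and P15. P60 and P15, which are not neighbours in this order, differed by -0.23 (SE 0.09, limma, adjusted p = 0.04995), barely under the threshold.

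Set against its own mature mean, each gene stood at a different point at P6. Cabp5 was at 23.4 ± 5.4% (SD, n = 3), Pcp2 at 25.3 ± 6.6%, Scgn at 41.8 ± 3.9% and Prkca at 53.2 ± 7.4%. Bhlhe23 was at 103 ± 13%, Lhx4 at 186 ± 14% and Vsx1 at 196 ± 21%. Among these 7, the transcription factors held the upper 3 places, and the kinase, calcium-binding and G protein genes the lower 4. Of the further genes described below, the 9 fate transcription factors stood at 106% or more at P6. The homeobox gene Sebox, though, stood at 12.6%, and the 12 ON signalling genes ran from 12.0% to 128% (median 40.0%). At P1 the 7 genes ranged from 0.0998% (Scgn) to 77.2% (Lhx4), and by P15 this range had narrowed to 96.0% to 110%. P15 is part of the mature mean, so some of this narrowing is built into the measure.

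**Figure D3:**
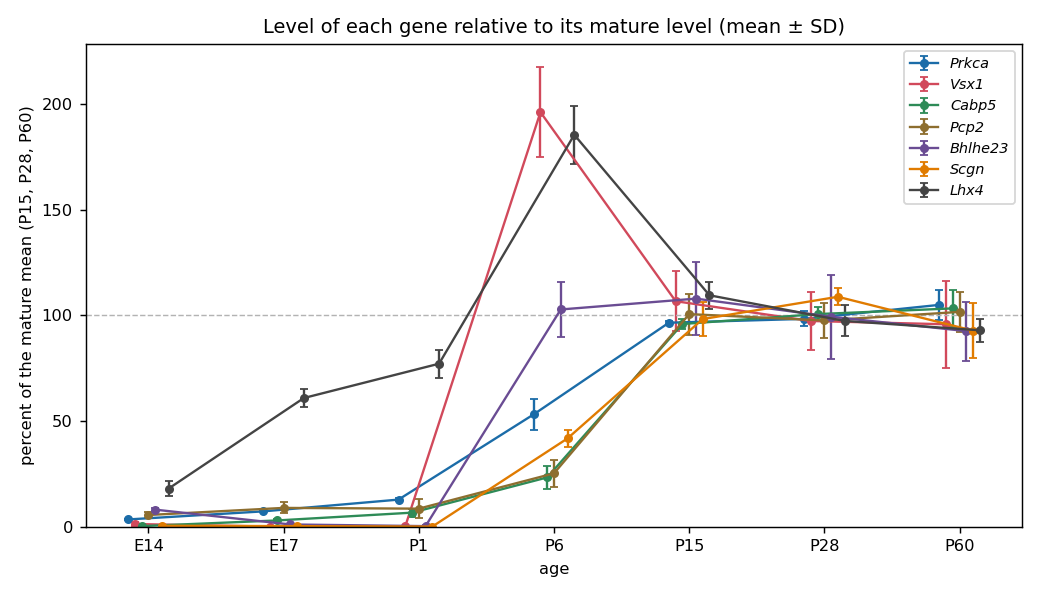
Level of each gene at each age as a percent of its mean over P15, P28 and P60 (mean ± SD over libraries, dashed line at 100). At P6 the genes spread from 23.4% (Cabp5) to 196% (Vsx1). From P15 on, the ages that define the mean, all lie near 100.

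Whether genes differed in this respect was tested on ratios within libraries, the difference of log2(CPM + 1) between 2 members. Of 21 pairs, 19 differed between the 3 P6 and the 14 mature libraries (exact permutation test, two-sided, lowest adjusted p = 0.0034 over the 21 pairs, with 0.0029 the smallest raw p that this design allows). The pairs share genes and libraries and are not independent. The Vsx1 to Cabp5 ratio was 3.05 log2 units higher at P6, at 1.02 ± 0.20 (SD, n = 3) against -2.03 ± 0.30 (n = 14). The Prkca to Cabp5 ratio, both genes of rod bipolar cells, was 1.16 higher at P6, and the Bhlhe23 to Prkca ratio 0.98 higher. Cabp5 and Pcp2 differed by only 0.20 (exact permutation test, adjusted p = 0.013). The 2 pairs that did not pass were Vsx1 with Lhx4 (0.07, exact permutation test, adjusted p = 0.66) and Prkca with Scgn (0.25, adjusted p = 0.099).

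**Figure D4:**
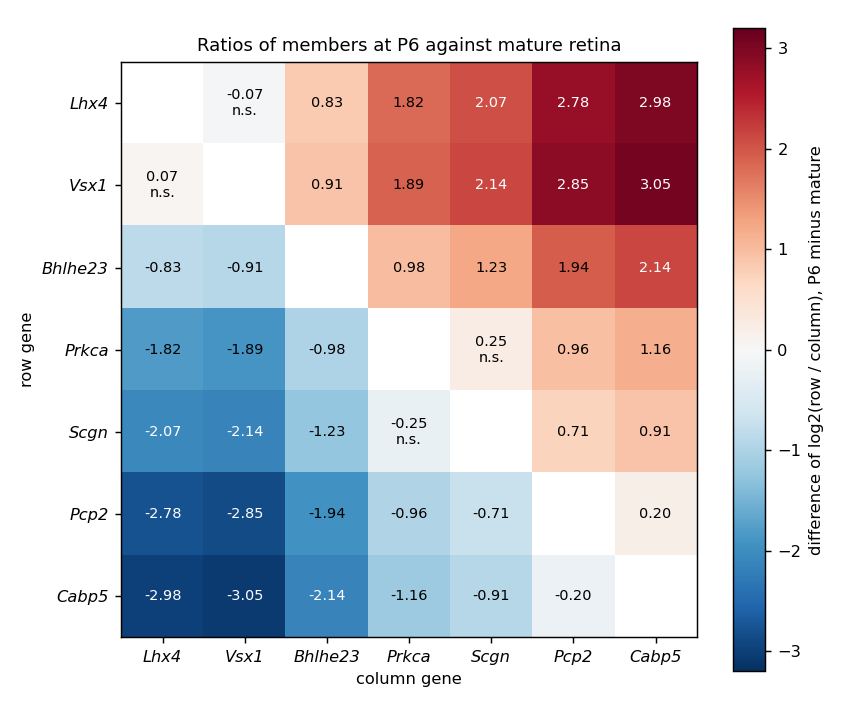
Difference between P6 (n = 3) and mature libraries (n = 14) in the log2 ratio of the row gene to the column gene, on the log2(CPM + 1) scale. Cells marked n.s. did not pass an adjusted p of 0.05 by the exact permutation test, which were Vsx1 with Lhx4 and Prkca with Scgn.

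Between P15 (n = 4) and P60 (n = 6) 0 of the 21 ratios passed (exact permutation test, lowest adjusted p = 0.20). The smallest raw p that this design allows is 0.0095, so a single pair could not pass after adjustment over 21. At an unadjusted p under 0.05 there were 2, Prkca to Lhx4, lower at P15 by 0.35 log2 units (exact permutation test, p = 0.0095), and Cabp5 to Lhx4, lower by 0.33 (p = 0.019).

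Levels can be compared between genes only per length. Per kilobase of exon, Prkca had the highest level at P60 with 62.8 CPM per kb, followed by Cabp5 with 45.0 and, well below, Pcp2 with 18.2 and Scgn with 16.2. The transcription factors were lowest, with 7.17 CPM per kb for Lhx4, 6.75 for Vsx1 and 3.28 for Bhlhe23. At P6 the order was different, since Lhx4 (14.3 CPM per kb) and Vsx1 (13.8) stood above Cabp5 (10.2), Scgn (7.32) and Pcp2 (4.52).

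Other bipolar genes gave a wider view. Of 6 further rod bipolar genes, 4 were called higher in mature than in embryonic retina and 0 lower (median log2 fold change 2.40), where 14.9% of all features were called higher. Gabrr1, a GABA receptor subunit, rose by 5.87 ± 0.10 and Car8 by 5.30 ± 0.09 on the log2 scale. Sebox, a homeobox gene of bipolar cells, was at least 5.466-fold higher at P6 than at P1. Tpbg did not pass (0.12 ± 0.11, limma, adjusted p = 0.31). At the P6 against P1 step 3 of the 6 were called higher (6.3% of all features), and at the P15 against P6 step again 3 (4.74%). Of 11 cone bipolar genes, 10 were called higher and 1 lower in mature retina, beside 14.9% and 16.1% (median 2.68). Grik1, a kainate receptor subunit of OFF bipolar cells, rose by 4.97 ± 0.08, and Lrrtm1, a synaptic adhesion gene, fell by 1.19 (SE 0.07). In this group 5 of 11 were called higher at P6 against P1 and 7 at P15 against P6, beside the same 6.3% and 4.74%.

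The genes of ON signalling carry the light response of ON bipolar cells. Of 12, 10 were called higher in mature retina and 0 lower (median 3.52), 8 were called higher at P6 against P1 and 7 at P15 against P6, beside 14.9%, 6.3% and 4.74% of all features called higher. Rgs9bp, whose product also anchors RGS9 in photoreceptors, rose by 8.03 ± 0.08 in mature against embryonic retina on the log2(CPM + 1) scale. Grm6, which encodes mGluR6, went from 0.274 CPM at P1 to 140.3 CPM at P6, a log2 fold change of 6.82 ± 0.18, and its P15 against P6 difference of 0.43 ± 0.18 did not pass (limma, adjusted p = 0.068). Trpm1, which encodes the channel downstream of it, rose by 5.63 ± 0.18 to P6 and by a further 2.33 ± 0.18 to P15. Nyx and Gpr179, both needed to place or regulate the cascade, rose by 2.52 ± 0.21 and 4.11 ± 0.17 to P6. Gng13 (0.89 ± 0.17) and Gnao1 (0.77 ± 0.04) were higher in mature than in embryonic retina but stayed under the fold threshold. The path of Gng13 was not a steady rise. It stood at 50.8% of its mature mean at E14, 30.6% at P1, 12.0% at P6 and 66.7% at P15. At P6 against P1, 0 of the 12 genes were called lower.

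Transcription factors of bipolar fate moved in both directions between embryonic and mature retina. Of 9, 2 were called higher in mature retina (Prdm8 and Lhx3) and 3 lower (Isl1, Irx5 and Prdm1), where 14.9% of all features were called higher and 16.1% lower. Their median was -0.07, beside -0.06 over all features. At the P15 against P6 step 0 were called higher and 4 lower (Otx2, Neurod4, Lhx3 and Prdm1), where 3.31% of all features were called lower. Otx2, a homeodomain factor of photoreceptors and bipolar cells, fell by 1.62 (SE 0.07) on the log2 scale. Prdm1, which opposes bipolar fate, fell by 2.91 (SE 0.11). The highest mean was at P6 for 5 of the 9, where 13.2% of all features peaked, as it was for Vsx1 and Lhx4. For Irx6 and Prdm8, though, P6 stood close to P60. Irx6 was at 122 ± 5.9% of its mature mean at P6 (SD, n = 3) and 121 ± 43% at P60 (n = 6), and Prdm8 at 106 ± 7.6% and 103 ± 8.5%.

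**Figure D5:**
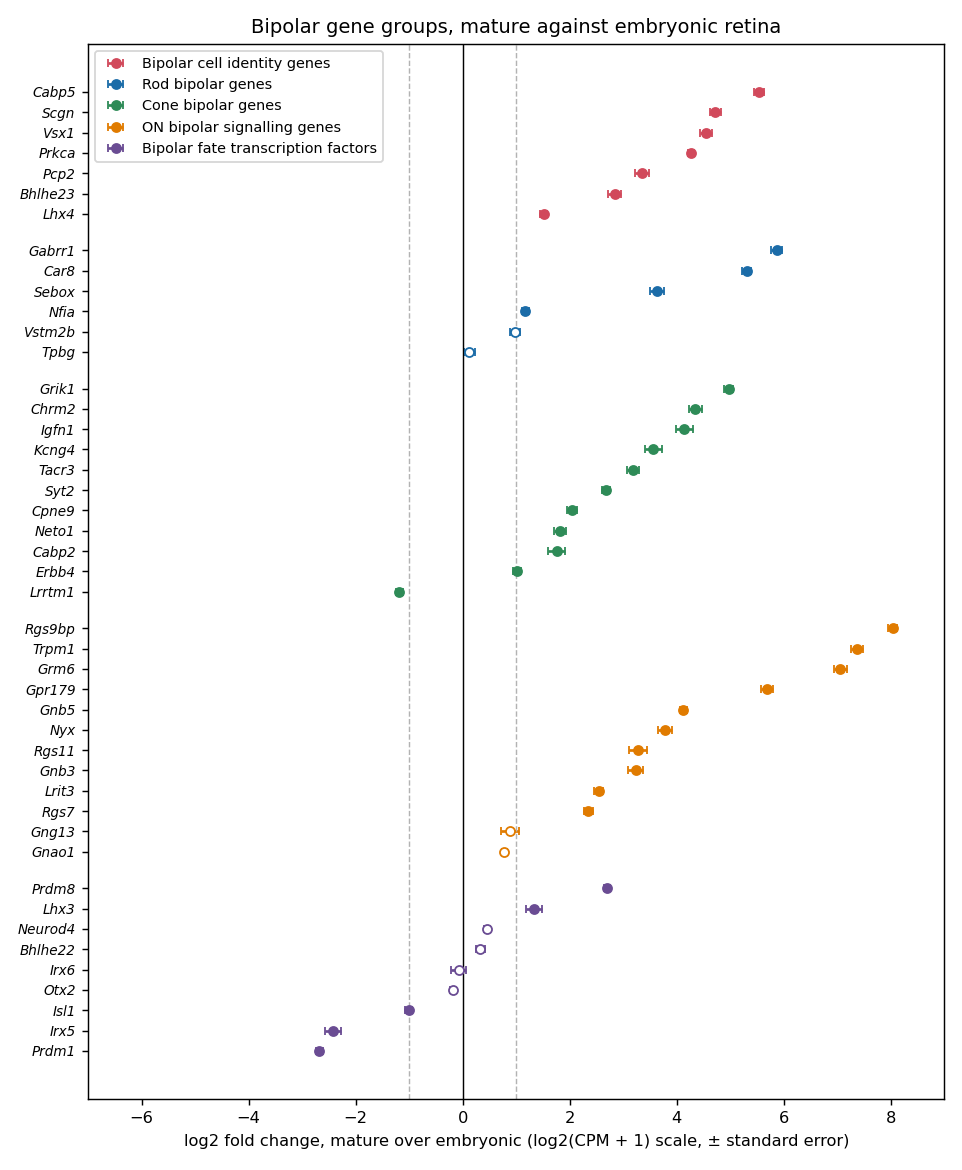
Log2 fold change (± SE) of mature over embryonic retina for the 7 genes and 4 further groups, on the log2(CPM + 1) scale. Filled points passed both thresholds (dashed lines at a log2 fold change of -1 and 1), and open points did not. The 7 genes lie between 1.51 (Lhx4) and 5.54 (Cabp5), while the fate factors run from -2.68 (Prdm1) to 2.69 (Prdm8).

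Markers of other cells moved over the same ages. The summed level of 6 rod photoreceptor markers went from 179 CPM at P1 to 3180 CPM at P6 and 17414 CPM at P15, and that of 6 progenitor markers from 4016 CPM to 184 CPM and 38.3 CPM. Muller glia markers stood at 389 CPM at P1, 385 CPM at P6 and 947 CPM at P15. CPM are shares of a library, and the part of these changes in the results was not tested. Markers of RPE summed to 5.28 CPM at E14 and 53.2 CPM at P15, and 3 lens markers to at most 7.36 CPM in any library.

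Leaving out the 7 members themselves, the genes whose log2(CPM + 1) was most like that of each member over the 27 libraries are given as a description, since libraries of an age share their age. For Prkca they included Rgs9 and Syngr1 (Pearson's r = 0.997 and 0.996), and for Cabp5 Sncb, Eno2 and Adora1 (r = 0.995, 0.993 and 0.993). For Vsx1 they were Ppp2r2b, Stom and Otor (r = 0.990, 0.987 and 0.986), and for Bhlhe23 Stom, Ppp2r2b and Grm6 (r = 0.982, 0.979 and 0.979). Pcp2 was nearest to Cabp4, Usp33 and Pfkfb2, Scgn to Gucy2f, Wdr17 and Gabrr1, and Lhx4 to Ppfia2, Magi2 and Sez6. Among members, Vsx1 ranked 2 of 19912 features for Bhlhe23 (r = 0.98), while Lhx4 was least like the others (r from 0.56 with Pcp2 to 0.76 with Prkca). With Spearman's rho, 0 of the 3 nearest genes stayed among the top 3 for any member.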

How the data were processed

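The authors extracted total RNA, prepared SMARTer libraries, sequenced single-end reads, aligned them with STAR to mm10 and deposited CPM values. The annotation and strand setting are not given in the sources used here. The labels give 3 retinas a library, while the study's methods describe larger pools. All values were whole multiples of 1 read (100.0%, tolerance 0.02), giving 7077781 to 11332323 reads a library (median 7969873). One read was 0.0882 to 0.141 CPM, and 3 reads served as the limit for counts of 0, covering counting error only. The 31760 features that reached 1 CPM in 3 or more libraries were fitted by limma 3.58.1 (R 4.3.3) with trend on log2(CPM + 1) with age as factor over all 27 libraries, with two-sided p-values adjusted by Benjamini-Hochberg across every feature fitted. This log scale understates changes of low genes. P-values measure the spread between libraries. edgeR 4.0.16 on recovered reads called 7469 features higher and 6099 lower in mature retina. Ratios used exact permutation tests (scipy 1.17.1). Scripts were tested on simulated data. Gene models were GENCODE and promoters RefSeq, matched for 7 of 7 genes. Named genes were the 7 members, the bipolar lists and the 3 most alike features of each member, and Pet100, Apoh and Gm14343 were added for their overlaps. Some genes these rules name are not reported here, and the list of fate factors was counted without them. Members and lists were chosen with earlier results of these data known. Alternatives were another pseudocount, other filters, scaling, a replicate block, edgeR, compared ages only, summed entries, no minimum fold, and leaving out each library. edgeR without E14 replicate 1, and limma and the ratios without P60 replicates 1 and 2, were added after seeing the data.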

Additional observations from a re-analysis of the deposited data

Results flagged for a closer look

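Of 28 groups of 4 or 6 libraries examined (7 genes at 4 ages), 3 held a library set apart from the others of its age, where chance gives about 1 in 20. Vsx1 in P28 replicate 4 was 20.5 CPM, below the 27.4 to 28.4 CPM of the other 3 libraries. Bhlhe23 and Scgn in P1 replicate 3 were each 0.113 CPM, which is 1 read, where the other 3 P1 libraries had 0. With counts of 0 and 1 a lone read always stands apart, so the chance rate does not apply to these 2.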

How the results depend on the processing

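The counts of 7 genes called higher in mature against embryonic retina and at P6 against P1 were 7 under each alternative that tested all 7, and 6 of 6 with a mean CPM of at least 10. The counts that follow take both directions together. At E17 against E14, 5 in place of 3 genes were called with a pseudocount of 0.1 and 5 with edgeR without E14 replicate 1. The genes added there were Vsx1 and Bhlhe23. Both fell at this step under every alternative that tested them, while the 3 of the main fit rose. With compared ages only, Vsx1 and Bhlhe23 missed the filter of 1 CPM in 3 libraries and were not tested. Bhlhe23 was also not tested with a mean CPM of at least 10. With single libraries left out, 2 to 3 were called. At P1 against E17, 1 in place of 0 was called with a pseudocount of 0.1, with edgeR, and with edgeR without E14 replicate 1, 0 to 1 with single libraries left out (1 without E17 replicate 3 or P1 replicate 2), and 3 with no minimum fold. With no minimum fold, 6 in place of 3 passed at P15 against P6, the added genes being Prkca, which rose, and Vsx1 and Lhx4, which fell. Of the fate factors, 8 in place of 5 then passed in mature against embryonic retina, again in either direction. The share of all features that passes with no minimum fold is not given here. The counts with no minimum fold therefore stand without a background and are not read as a result about these genes. Pair ratios passing at P6 ran from 18 to 20 with single libraries left out. Some differences that did not pass changed sign. Vsx1 at P60 against P28 was 0.0285 with median-of-ratios scaling, 0.0427 with edgeR with and without E14 replicate 1, 0.16 without P60 replicates 1 and 2, and -0.145 to 0.0447 with single libraries left out, and Lhx4 there was 0.0039 with that scaling. With single libraries left out, Pcp2 at P1 against E17 ran from -0.317 to 0.0634, Bhlhe23 from -0.0303 to 0.139 at P15 against P6 and from -0.186 to 0.0230 at P60 against P28, and Scgn from -0.178 to 0.0442 at E17 against E14 and from -0.131 to 0.0386 at P1 against E17. Of 1800 results for single genes, 1762 kept direction and side of the threshold, 20 no longer passed, 2 newly passed and 16 changed sign. Replicate numbers did not pair the libraries (correlation over 0.1 in 3 of 69 same-numbered pairs), and with a replicate block the members called stayed at 7, 3, 0, 7, 3, 0 and 0, and Lhx4 at P1 against E17 was 0.31 (limma, adjusted p = 0.080). Over all features, edgeR called 7469 higher in mature retina in place of 4726, 3117 in place of 2000 at P6, and 2603 in place of 1506 at P15. The causes were not tested. Depth limits Vsx1, Bhlhe23 and Scgn up to P1, where most libraries held 0 or 1 read.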
